A study of Mus musculus with 6 samples.

Results

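The genes described here are 39 transcripts of heart muscle, measured in 6 RNA-seq libraries of mouse eosinophils. The list was given by name, and the genes were taken up because they stood high in the libraries of 1 h and low in those of 4 h, so their levels are a description and carry no test. All 39 were found among the 22548 gene symbols of the deposited tables. Low-density bone marrow cells of wild-type BALB/c mice aged 4 to 8 weeks were grown into eosinophils over 14 days. SCF and FLT3-ligand, each at 100 ng/ml, were present until day 4, and IL-5 at 10 ng/ml replaced them from then on. The groups were cells without added cytokine, cells given IL-4 at 10 ng/ml and cells given IL-33 at 10 ng/ml, each at 1 h and at 4 h, with 1 library per group. No label says how many animals a library came from, or whether the libraries of 1 h and 4 h were made together.

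Heart muscle contracts when myosin thick filaments pull on actin thin filaments within the sarcomere, a unit held together by titin and the Z-disc. Calcium from the sarcoplasmic reticulum starts each beat, and mitochondria supply nearly all of the energy. Several sarcomere proteins have separate ventricular and atrial forms, and in the adult mouse Myh6 is the main myosin of both chambers. Eosinophils are blood granulocytes and are not known for sarcomere proteins, but they use some broadly expressed genes that heart muscle also uses at high levels. Of the 39 genes, 3 belong to this broadly expressed class by textbook knowledge: Atp2a2 (a calcium pump of the endoplasmic reticulum), Slc25a4 (a mitochondrial ADP/ATP carrier) and Tpm1 (a tropomyosin).

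The promoters of 4 genes are shown to set 3 heart genes that were detected beside an atrial gene that was not. Each run covers 250 bases before and 50 after the gene's start, in the RefSeq table for GRCm38.p6, a later build than the mm9 of the deposited tables. Capitals mark matches, on either strand, to 5 motifs searched, which were CATTCC (the letters of an M-CAT element), the letters TATAAA and the letters AGATAA, besides the CArG box and the MEF2 site.
Myh6 (chr14:54966558-54966857, minus strand): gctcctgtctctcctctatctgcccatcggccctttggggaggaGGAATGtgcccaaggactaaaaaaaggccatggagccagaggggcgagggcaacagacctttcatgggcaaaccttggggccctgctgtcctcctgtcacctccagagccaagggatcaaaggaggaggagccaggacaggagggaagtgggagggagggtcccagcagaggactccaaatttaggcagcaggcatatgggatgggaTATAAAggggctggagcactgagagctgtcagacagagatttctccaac
Tnnt2 (chr1:135836084-135836383, plus strand): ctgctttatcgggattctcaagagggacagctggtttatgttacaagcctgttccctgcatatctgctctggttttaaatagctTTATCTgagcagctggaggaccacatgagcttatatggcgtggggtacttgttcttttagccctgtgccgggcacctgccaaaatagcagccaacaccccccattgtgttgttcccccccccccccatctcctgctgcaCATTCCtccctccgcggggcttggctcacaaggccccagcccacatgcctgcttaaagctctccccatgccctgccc
Myl3 (chr9:110763428-110763727, plus strand): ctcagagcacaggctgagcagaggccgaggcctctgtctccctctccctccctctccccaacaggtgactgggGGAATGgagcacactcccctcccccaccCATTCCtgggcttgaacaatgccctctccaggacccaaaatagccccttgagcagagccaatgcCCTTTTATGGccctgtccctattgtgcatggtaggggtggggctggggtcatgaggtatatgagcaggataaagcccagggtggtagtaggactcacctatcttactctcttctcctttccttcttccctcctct
Myl7 (chr11:5898733-5899032, minus strand): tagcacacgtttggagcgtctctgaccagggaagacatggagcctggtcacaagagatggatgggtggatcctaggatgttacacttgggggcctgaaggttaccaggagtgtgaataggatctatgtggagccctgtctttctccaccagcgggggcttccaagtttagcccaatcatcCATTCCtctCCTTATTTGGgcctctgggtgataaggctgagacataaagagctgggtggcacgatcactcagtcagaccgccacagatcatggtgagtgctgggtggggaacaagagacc

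A promoter within 300 bases of the start of a deposited transcript was in that table for 32 of the 39 genes. CATTCC stood in 10 of these 32 (31.3%) and in 14.7% of the 32851 promoters of the table. The CArG box stood in 5 (15.6%, against 1.63%), the MEF2 site in 4 (12.5%, against 3.19%), TATAAA in 6 (18.8%, against 13.6%) and AGATAA in 5 (15.6%, against 11.2%). The Myl7 promoter held a CArG box and a CATTCC, as the Myl3 promoter did, although Myl7 was listed at 0 in all 6 libraries. A match is a description of letters and not of a bound site.

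Eosinophil transcripts were abundant in each library. The granule protein gene Prg2 stood between 41838 and 52228 FPKM, Epx (eosinophil peroxidase) between 1327 and 2166 and Ccr3 (the eotaxin receptor) between 396 and 533. FPKM is a level scaled to transcript length and to library size. From the smallest values, 1 read on a transcript of 1 kilobase was worth about 0.0643 FPKM in the untreated library of 4 h, the shallowest. On a longer transcript 1 read was worth less. In the IL-33 library of 4 h, the deepest, the value for 1 kilobase was 0.0323 FPKM. The libraries of 1 h lay between, at 0.0388 to 0.0487 FPKM. The estimated reads quoted below come from the same step and are approximate. No p-value is given, because each group is a single library and its spread is unknown.

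The 39 genes summed to 382 FPKM in the untreated library of 1 h, 306 with IL-4 and 327 with IL-33, against 94.9, 109 and 120 FPKM at 4 h. Without the 3 broadly expressed genes the sums were 270.4, 204 and 207 FPKM at 1 h and 19.3, 27.1 and 35.6 at 4 h. Cox7a1, a muscle form of a cytochrome c oxidase subunit, made up most of the 4 h sums, and without it as well they were 231, 171 and 168 FPKM at 1 h and 8.64, 9.87 and 8.25 at 4 h. All libraries of 1 h thus stood above all libraries of 4 h. In the untreated library of 1 h the 36 remaining genes held 0.0368% of the total FPKM. In bulk RNA, more cells of a type and more RNA per cell cannot be told apart.

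**Figure D1:**
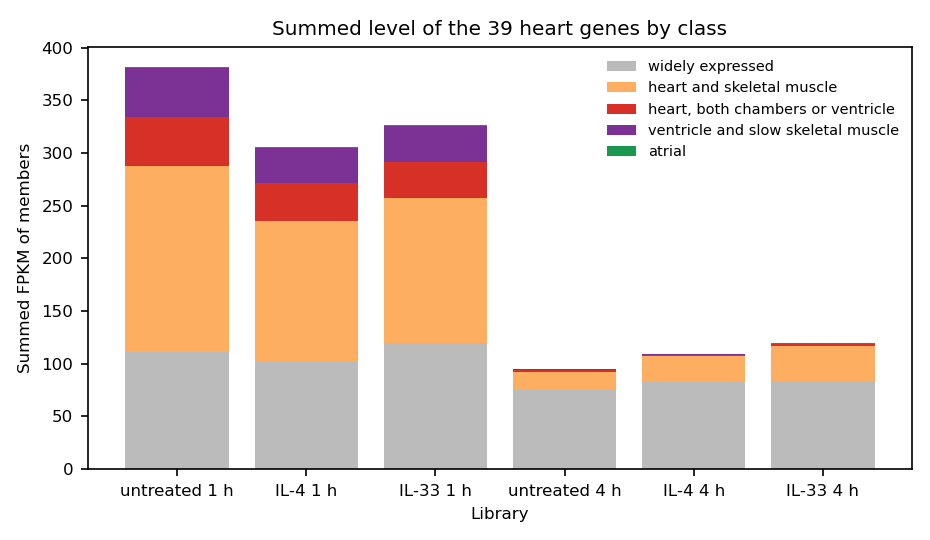
Summed FPKM of the 39 heart genes (vertical axis) in each of the 6 libraries (horizontal axis), stacked by class. The broadly expressed genes make up 101 to 120 FPKM at 1 h and 75.6 to 84.0 at 4 h, while the other classes shrink from 204 or more to at most 35.6.

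Of the 39 genes, 32, 28 and 29 stood at 1 FPKM or more in the untreated, IL-4 and IL-33 libraries of 1 h, and 7, 8 and 7 in the same order at 4 h. Of all 22548 genes, 10458, 10445 and 10387 did so at 1 h and 10614, 10682 and 10456 at 4 h. The member counts follow the contrast by which the genes were picked, and nothing is read from them. Of the 39, those listed at exactly 0 numbered 3, 2 and 2 at 1 h and 17, 13 and 14 at 4 h. An FPKM of 0 can be a failed estimate. For 10 of the 39 genes every library of 4 h was listed at 0 while every library of 1 h was not. They were Myl3, Ldb3, Myoz2, Myom2, Des, Casq2, Mb, Ckmt2, Cox8b and Nppb. The share of all genes listed at 0 in these ways is not given here. These counts also follow the contrast by which the genes were picked, and nothing is read from them.

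Among the genes of the thick filament, Myl2, the regulatory light chain of ventricle and slow skeletal muscle, stood highest. It was at 33.1 FPKM in the untreated library of 1 h, 23.5 with IL-4 and 23.6 with IL-33, and at 0.150, 0.602 and 0.0751 FPKM at 4 h. In estimated reads this was 322, 223 and 282 against 1.1, 5.4 and 1.1. The libraries of 1 h all stood above those of 4 h, as they did for 8.06% of all genes. Myl2 was picked by this contrast, and nothing is read from it. The IL-4 library was the highest of 4 h. Myl2 (NM_010861) lies on chromosome 5 of mm9 at 122550989 to 122556863. The 7 genes of the thick filament summed to 67.9, 49.0 and 49.8 FPKM at 1 h and 1.27, 2.00 and 2.03 at 4 h.

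Myh6, the alpha myosin heavy chain, stood at 15.4, 11.6 and 11.6 FPKM at 1 h (untreated, IL-4 and IL-33, the order used throughout) and at 0, 0.00444 and 0 at 4 h. Myl3, the ventricular essential light chain, stood at 13.6, 9.60 and 10.1 FPKM at 1 h and was listed at 0 in all 3 libraries of 4 h. Myh7, the beta heavy chain, stood at 1.91, 1.18 and 1.16 FPKM against 0.0110, 0.00441 and 0.00550. In all 3 libraries of 1 h, Myh6 was above Myh7 on this scale per length. Myh6 and Myh7 are close copies that lie side by side on chromosome 14 and may share reads, so the split between them is uncertain. In mm9 Myh6 spans 55560758 to 55585444 and Myh7 55587624 to 55613386.

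Mybpc3, cardiac myosin-binding protein C, was at 3.93, 2.97 and 3.23 FPKM at 1 h but kept 1.11, 1.16 and 1.57 at 4 h, where the estimated reads numbered 68.1, 89.2 and 192. It was thus measured at both times and differed less between them than its neighbours in the filament. The atrial light chains behaved otherwise. Myl7 was listed at 0 in all 6 libraries, and Myl4 stood at 0, 0.215 and 0.0570 FPKM at 1 h and 0, 0.228 and 0.379 at 4 h.

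In the thin filament, Actc1, the cardiac actin, stood at 30.4, 22.6 and 23.4 FPKM at 1 h and 0.812, 0.523 and 0.516 at 4 h. Other actins are near-identical in sequence, and reads may be shared among them. Actc1 lies on chromosome 2 of mm9 at 113873025 to 113878547. Acta1, the skeletal actin, stood at 78.0, 76.4 and 109.6 FPKM at 1 h and 58.5, 60.1 and 73.9 at 4 h, and cytoplasmic Actb at 4849.7 FPKM or more in every library.

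The cardiac troponins gave the same picture as Actc1. Tnnt2, which ties the troponin complex to tropomyosin, stood at 15.1, 11.8 and 11.2 FPKM at 1 h and 0, 0.0563 and 0 at 4 h. Tnni3, the inhibitory subunit, stood at 11.0, 9.57 and 7.87 FPKM against 0.725, 0.333 and 0.571. Tnnc1, the calcium-binding subunit of heart and slow muscle, stood at 7.98, 6.73 and 5.04 FPKM against 0.772, 0.414 and 0.581. The lowest value of 1 h was above the highest of 4 h for each of these genes, as it was for 8.06% of all genes. This is the contrast by which the genes were picked, and nothing is read from it. Tpm1 also had its groups apart, but at levels that were closer, 29.7, 26.2 and 25.2 FPKM against 17.8, 16.8 and 14.7. The skeletal troponins were not alike: fast Tnni2 stood at 32.0, 27.4 and 24.4 FPKM at 1 h and 34.7, 30.1 and 24.2 at 4 h, and Tnnt3, singled out after its values were seen, at 0.299 FPKM or less in every library.

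The 11 genes of the Z-disc, the M-band and titin had no overlap between the groups either, beside 8.06% of all genes with every library of 1 h above every library of 4 h. This is the contrast by which the genes were picked, and nothing is read from the count. Csrp3, a Z-disc protein that takes part in mechanical sensing, had the highest mean of the group at 1 h, at 5.54, 2.81 and 3.35 FPKM against 1.21, 1.64 and 0.379. Ttn, the giant spring protein titin, stood at only 0.589, 0.493 and 0.514 FPKM against 0.00392, 0.00821 and 0.0118. Because its transcript is very long, this amounted to about 1014, 827 and 1084 estimated reads at 1 h and 5.0, 13 and 29.9 at 4 h, so the low FPKM of titin was measured on many reads.

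Actn2, the alpha-actinin of the Z-disc, stood at 2.32, 1.4 and 1.5 FPKM at 1 h and at most 0.141 at 4 h. Des, the intermediate filament desmin, stood at 2.19, 1.77 and 1.63 FPKM at 1 h, and it, Ldb3, Myoz2 and Myom2 were listed at 0 throughout 4 h. Tcap, which caps titin, stood at 2.10, 2.09 and 2.24 FPKM against 0, 0 and 0.173. The small heat shock protein genes differed from each other. Cryab kept 0.720, 1.21 and 1.02 FPKM at 4 h, below its 3.62, 3.12 and 3.71 at 1 h, while Hspb7 went from 2.77, 1.67 and 1.84 FPKM at 1 h to at most 0.189.

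**Figure D2:**
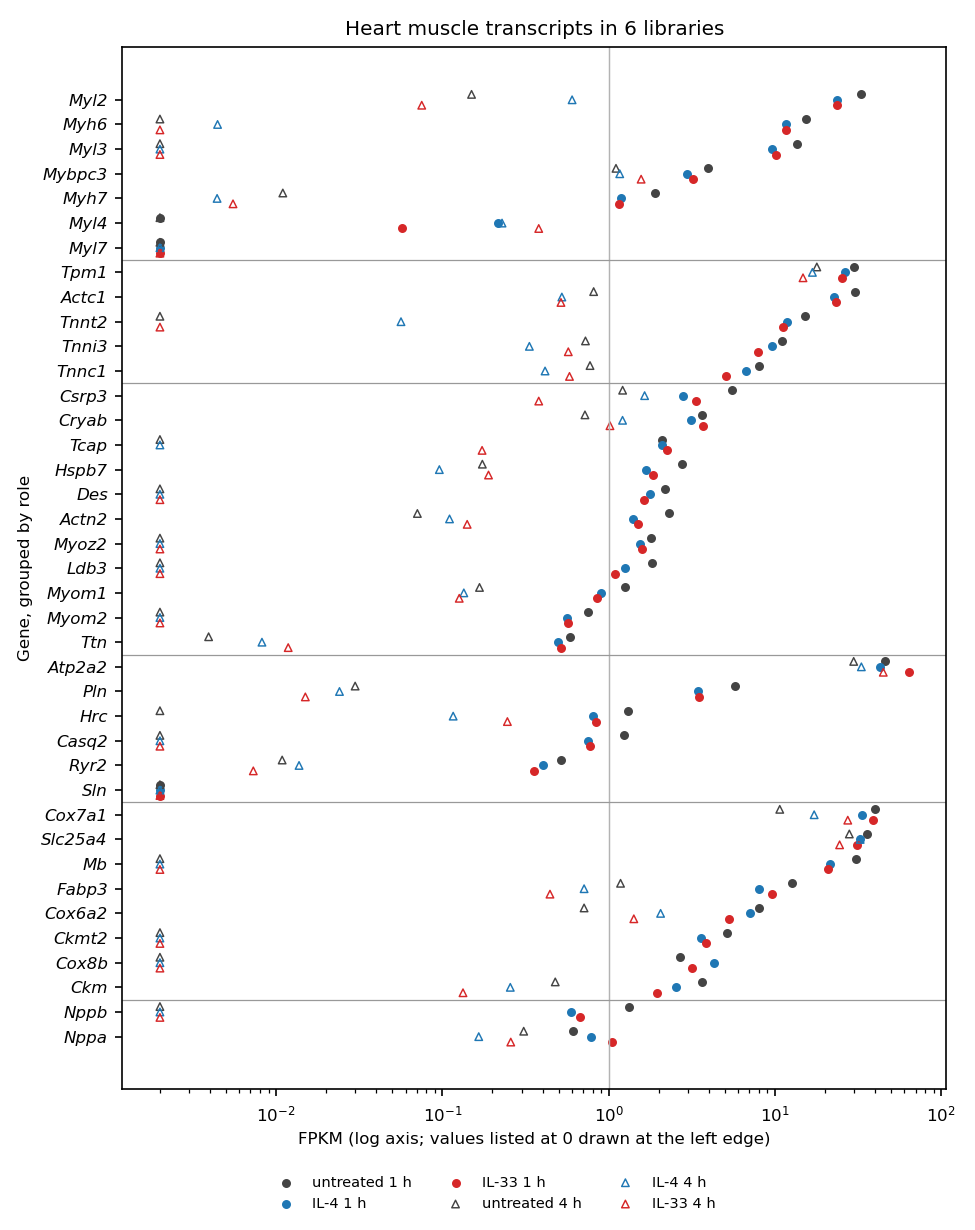
FPKM of each of the 39 genes (rows, grouped by role) on a log axis, with filled circles for the libraries of 1 h and open triangles for those of 4 h, coloured by treatment. Most genes show circles far to the right of the triangles, and Myl4, Myl7, Sln, Atp2a2 and Slc25a4 are the 5 whose groups overlap.

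Of the genes that handle calcium, Pln, the phospholamban that restrains the calcium pump, stood at 5.73, 3.46 and 3.49 FPKM at 1 h and 0.0299, 0.0240 and 0.0150 at 4 h. The 4 h values correspond to about 1.0 read in each library. Ryr2, the calcium release channel of heart muscle, stood at 0.517, 0.403 and 0.354 FPKM against 0.0109, 0.0137 and 0.00729, on about 181, 137 and 152 estimated reads at 1 h. Casq2, the calcium store protein, stood at 1.24, 0.755 and 0.772 FPKM and was listed at 0 throughout 4 h, and Hrc stood at 1.30, 0.801 and 0.835 FPKM against 0, 0.116 and 0.246. Sln, the sarcolipin of atrium and skeletal muscle, was listed at 0 in all 6 libraries.

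Atp2a2 was the most abundant of the 39 genes and did not share this pattern. It stood at 45.6, 42.8 and 63.9 FPKM at 1 h and 29.7, 33.1 and 44.8 at 4 h, so that the IL-33 library of 4 h lay above the IL-4 library of 1 h. Its ratio to the untreated library of the same table was 1.48 with IL-33 at 1 h and 1.59 at 4 h, under the change of 1 log2 that was called. The ratios with IL-4 were 0.939 and 1.11.

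Among the genes of energy supply, Mb, the oxygen store myoglobin, stood at 30.5, 21.4 and 20.9 FPKM at 1 h, on 581, 397 and 487 estimated reads, and was listed at 0 throughout 4 h. Mb lies on chromosome 15 of mm9 at 76845917 to 76887538. The mitochondrial creatine kinase gene Ckmt2 stood at 5.18, 3.6 and 3.83 FPKM and was also listed at 0 throughout 4 h. Its cytosolic counterpart Ckm stood at 3.64, 2.53 and 1.95 FPKM against 0.477, 0.256 and 0.133. Fabp3, the fatty acid carrier of heart muscle, stood at 12.7, 8.03 and 9.59 FPKM against 1.18, 0.711 and 0.443. Slc25a4 overlapped between the times, at 35.9, 32.5 and 30.9 FPKM against 28.0, 32.5 and 24.5.

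The muscle forms of cytochrome c oxidase subunits, the last complex of the respiratory chain, differed among themselves. Cox8b stood at 2.68, 4.27 and 3.16 FPKM at 1 h on 9.1 to 14.1 estimated reads and was listed at 0 at 4 h. Cox6a2 stood at 7.98, 7.12 and 5.32 FPKM against 0.711, 2.05 and 1.42. Cox7a1 stood at 39.8, 33.3 and 38.7 FPKM at 1 h and at 10.7, 17.2 and 27.4 FPKM at 4 h. It was thus well measured at both times, and with IL-33 at 4 h it was higher than untreated by more than the rule of size used below, by 1.35 on the log2(FPKM + 1) scale.

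The natriuretic peptide genes were the lowest group that was detected. Nppb, the B-type peptide, stood at 1.32, 0.591 and 0.672 FPKM at 1 h and was listed at 0 at 4 h. Nppa, the A-type peptide of the atrium, stood at 0.607, 0.778 and 1.05 FPKM against 0.308, 0.165 and 0.258, on 8.5 to 18.1 estimated reads at 1 h. As a class, the 4 atrial genes (Myl4, Myl7, Nppa and Sln) summed to 0.607, 0.993 and 1.11 FPKM at 1 h, while Myl2 and Myl3 summed to 46.7, 33.1 and 33.7.

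The times were compared within each treatment by log2((FPKM 1 h + 1) / (FPKM 4 h + 1)), a scale that understates the change of low genes. A gene was called at an absolute value of 1 or more, among genes with 1 FPKM in at least 1 of the 2 libraries. These comparisons join separately normalised tables, and they are the contrast by which the genes were picked, so nothing is read from their counts. In untreated cells 28 of the 32 genes compared were higher at 1 h and none lower, beside 1.56% of all genes higher and 0.879% lower. With IL-4, 21 of 28 were higher and none lower (all genes 1.43% and 1.3%), and with IL-33 23 of 29 and none lower (2.72% and 4%). In all 3 treatments at once 21 of 28 were higher, beside 0.668% of all genes. By role these were 4 of 5 in the thick filament, 4 of 5 in the thin filament, 6 of 8 in the Z-disc, M-band and titin group, 1 of 2 in calcium handling and 6 of 8 in energy supply, and no natriuretic peptide gene could be compared. The medians of the genes compared were 1.66, 1.48 and 1.4, beside -0.10, -0.15 and -0.09 over all genes. The lowest library of 1 h was above the highest of 4 h for 31 of the 33 genes that reached 1 FPKM anywhere, beside 11% of all genes, and for 34 of the 39 with no floor on the level, beside 8.06%.

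The largest log2 differences in untreated cells were those of Mb (4.98), Myl2 (4.89), Actc1 (4.12), Myh6 (4.03) and Tnnt2 (4.01). In the same comparison, the genes that were compared and not called were Myom1 (0.95), Tpm1 (0.70), Atp2a2 (0.60) and Slc25a4 (0.35). With IL-4 they were Cox7a1 (0.91), Cryab (0.90), Mybpc3 (0.87), Csrp3 (0.53) and the 3 broadly expressed genes. With IL-33 they were Mybpc3 (0.72), Nppa (0.71), Cox7a1 (0.48) and the 3 broadly expressed genes.

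**Figure D3:**
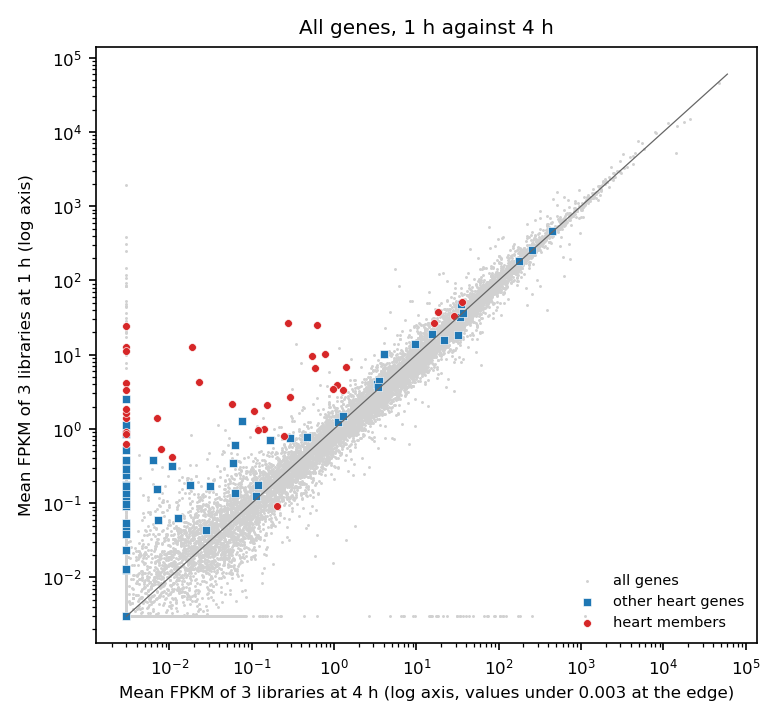
Mean FPKM of the 3 libraries of 1 h (vertical log axis) against that of the 3 libraries of 4 h (horizontal log axis) for all genes (grey), the heart genes described here (red) and other heart genes (blue). Both axes place values under 0.003 FPKM at the edge, most red points lie above the diagonal, and Mb, Myl3 and Ckmt2 are among those at the left edge.

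A stricter pattern was also counted, chosen after the values were seen: 0.5 FPKM or more in every library of 1 h and under 0.05 in every library of 4 h. This is again the contrast by which the genes were picked, so nothing is read from its counts. Of the 39 heart genes 34 met the part on 1 h, as did 11025 of all genes. Both parts held for 19 of the 11025 (0.172%), and 13 of the 19 were members of the list. Of the other 6, Ankrd1 (a stress-responsive Z-disc protein), Lmod2 (a thin filament length regulator) and Fxyd1 (phospholemman, a regulator of the sodium pump) stood in a list of other heart genes, Mir1306 and Mir3074-1 are small RNA genes, and D830015G02Rik was the last. Ankrd1 stood at 3.28, 2.18 and 2.23 FPKM, Lmod2 at 1.18, 0.800 and 0.615, Fxyd1 at 1.15, 0.768 and 1.43 and D830015G02Rik at 4.54, 3.19 and 3.68 FPKM at 1 h, and all were listed at 0 at 4 h. The reverse pattern, 4 h high and 1 h low, held for 4 (0.0364%) of the 10997 genes at 0.5 FPKM or more in every library of 4 h. Of these 4, 2 were small RNA genes and the others were Krt14 and Gm5741.

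The treatments were then compared within the deposited tables. With IL-4 at 1 h, none of 32 heart genes was higher or lower by the rule of size, beside 0.47% and 0.358% of all genes, and with IL-33 at 1 h none of 33 was (2.36% and 0.669%). At 4 h, 9 genes could be compared in each table. None was higher or lower with IL-4 (0.646% and 0.351% of all genes), and with IL-33 Cox7a1 was higher (4.15%) and none lower (1.38%).

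Below that size, the untreated library of 1 h stood above both treated ones for most of these genes. Over the 26 heart genes with a mean of 1 FPKM at 1 h, the broadly expressed ones left out, the ratio of IL-4 to untreated had a median of 0.732 and quartiles of 0.687 and 0.841, and 25 of 26 were below 1, beside 60.0% of all genes. The ratio of IL-33 to untreated had a median of 0.770 and quartiles of 0.691 and 0.810, and 22 of 26 were below 1, beside 52.7% of all genes. Over all 10446 genes with such ratios the medians were 0.984 and 0.991. Both ratios were below 1 for 22 of the 26 genes and for 36.8% of all genes at that level. The lowest were Csrp3 with IL-4 (0.506) and Ckm with IL-33 (0.567), and the highest was Cox8b (1.60 and 1.25). The 26 genes share their libraries and are not replicates, and both ratios share the untreated library. Across these 26 genes, log2(FPKM + 1) correlated between the libraries of 1 h with Pearson r from 0.982 to 0.991, given as a description.

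The authors' deposited table of significant genes named 8 of the 39, and it held 1593 genes in all, where 22548 gene symbols were measured. It marked 2.87% of all gene symbols for IL-4 at 1 h and 2.64% for IL-33 at 4 h. Among the heart genes it marked Actc1, Csrp3, Fabp3, Mb, Myl2, Myl3 and Tnnt2 for IL-4 at 1 h, with log2 fold changes in that table from -0.98 (Csrp3) to -0.35 (Tnnt2), and Cox7a1 for IL-33 at 4 h (1.44). Those marks came from the reads of 2 libraries.

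**Figure D4:**
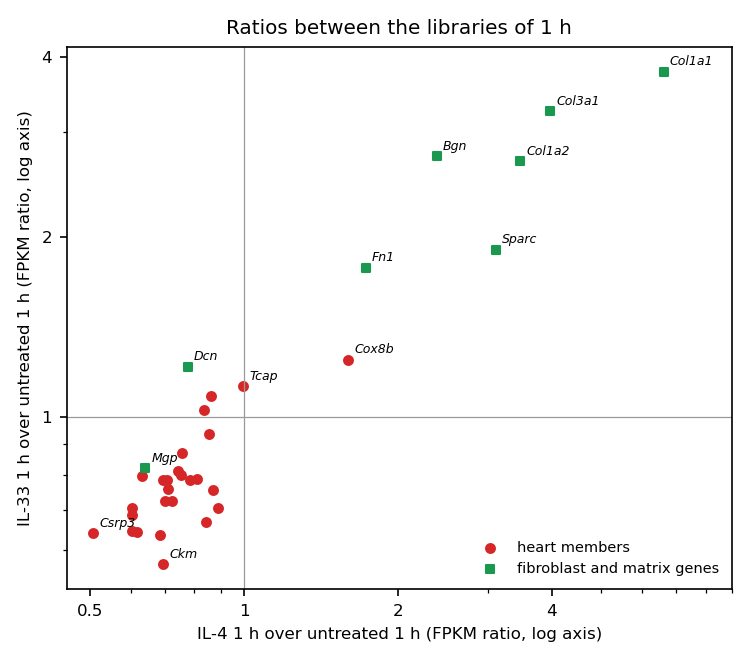
Ratio of IL-4 1 h (horizontal log axis) and IL-33 1 h (vertical log axis) to untreated 1 h in FPKM, each within its table, for 26 heart genes (red circles) and 8 fibroblast and matrix genes (green squares). Most heart genes lie below 1 on both axes near their medians of 0.732 and 0.770, while Col1a1, Col3a1, Col1a2, Sparc, Bgn and Fn1 lie above 1 on both. Mgp lies below 1 on both axes, and Dcn below 1 with IL-4 only.

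The lists of other genes below were chosen with earlier results of these data known, so nothing is read from their counts. Some genes of fibroblasts and matrix also had every library of 1 h above every library of 4 h, 8 of the 13 listed and 6 of the 8 that reached 1 FPKM, beside 8.06% and 11% of all genes. By the rule of size 1 of the 3 that could be compared in all 3 treatments, Mgp, was higher at 1 h in each. Col1a2, a chain of type I collagen, stood at 0.921, 3.20 and 2.33 FPKM at 1 h against 0.468, 0.690 and 0.515. Sparc stood at 1.31, 4.08 and 2.36 FPKM and Bgn at 1.34, 3.19 and 3.46, against at most 0.641 and 1.24. Col1a1 and Dcn were singled out after their values were seen. The IL-4 and IL-33 ratios of Col1a1 to the untreated library were 6.62 and 3.79, the highest of the 8 matrix genes compared. Those of Dcn were 0.776 and 1.21. Mgp, a matrix protein of vessels and cartilage, had instead ratios of 0.641 and 0.821, and stood at 4.8, 3.08 and 3.73 FPKM against 1.14, 0.654 and 0.245. The sum of the 13 matrix genes was 12.1, 21.9 and 19.0 FPKM at 1 h and 4.56 to 5.82 at 4 h.

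Further heart genes outside the list were mostly low. They were chosen with earlier results of these data known, so nothing is read from their counts. Of 58 such genes, 37 had every library of 1 h above every library of 4 h, beside 8.06% of all genes, and 17 were listed at 0 throughout 4 h and in no library of 1 h. Among the 21 that reached 1 FPKM, 8 had the groups apart, beside 11% of all genes at that level, and Ankrd1 was higher at 1 h by the rule of size in all 3 treatments. The most abundant of the list, Cox4i1, Atp5b, Ndufa4 and Asph, are genes of general use. They stood at similar levels at both times except Asph, at 48.1, 48.9 and 45.3 FPKM against 39, 39.3 and 24.9. Of the heart transcription factor genes, Mef2c, which blood cells also use, stood at 1.28, 1.2 and 1.28 FPKM at 1 h and 1.47, 1.22 and 0.688 at 4 h, with the groups overlapping. Both it and Nkx2-5 were singled out after their values were seen, and Nkx2-5 stood at 0.215, 0.147 and 0.147 FPKM at 1 h and listed at 0 at 4 h.

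No gene of the fast skeletal muscle, liver, brain, lung, kidney or pancreas lists was higher at 1 h by the rule of size in all 3 treatments, but few could be compared in all 3: 5 of fast skeletal muscle, none of liver and 1 in each of the others. Of the 20 genes of fast skeletal muscle 6 had the groups apart, beside 8.06% of all genes. Pygm, the muscle glycogen phosphorylase, was one of them, at 2.59, 2.40 and 3.28 FPKM at 1 h and 1.00, 0.894 and 0.695 at 4 h, as was Acta1. Mylpf, a fast myosin light chain, overlapped, at 3.10, 3.71 and 4.71 FPKM against 4.19, 4.03 and 3.21. The myosins Myh4, Myh1 and Myh2, singled out after their values were seen, stood at 0.0266 FPKM or less in every library. Of the 4 genes of slow skeletal muscle none had the groups apart. Of the 9 genes of smooth muscle 2 did and 1 had the reverse, beside 8.06% of all genes with the groups apart. In these lists 1 and 4 genes could be compared in all 3 treatments, and none was higher at 1 h in each. The liver genes summed to 1.04, 1.55 and 1.39 FPKM at 1 h and 0.757 to 1.44 at 4 h, with Alb listed at 0 in all 6 libraries. The sums of lung epithelial genes were 2.54 to 4.90 FPKM at 1 h and 3.31 to 6.06 at 4 h, with Sftpc at 0, and those of kidney genes were 1.23 to 1.34 and 1.02 to 1.29, with Umod at 0. The brain list, carried by Mbp, summed to 25.1 to 29.4 FPKM at 1 h and 20.02 to 28.0 at 4 h. The pancreas and gut list, carried by Cela1, summed to 15.2 to 16.8 FPKM at 1 h and 10.7 to 14.3 at 4 h. The endothelial list summed to 79.6 to 85.4 FPKM at 1 h and 92.1 to 120.7 at 4 h, nearly all of it Pecam1, which leukocytes also express. Of its 11 genes 4 had every library of 1 h above every library of 4 h, beside 8.06% of all genes, and 2 had the reverse. None of the 4 was among the 3 endothelial genes that reached 1 FPKM in any library.

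Globin transcripts, known from red blood cells, followed the times in part. Hbb-b2 stood at 1.52, 0.718 and 0.687 FPKM at 1 h and 0.0790, 0.0635 and 4.87e-06 at 4 h, with the untreated library again the highest. Beta-s, named after its values were seen, stood at 1.64, 1.46 and 1.07 FPKM against 0.0738, 0.267 and 0.0740. Hba-a1 stood at 3.75, 3.29 and 2.73 FPKM against 2.19, 1.90 and 1.36, and globin copies may share reads. The part of RNA from another tissue or from other cells of the culture in the heart values was not tested.

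By the likeness of their pattern over the 6 libraries to the sum of the 36 heart genes, 12 genes outside the list were named from 1215 that were eligible. They were Isg15, Fam162a, Ly6i, F2rl2, Zbp1, Pdk4, Hist1h1c, Slc16a6, Moap1, Ankrd1, Isg20 and Ly6f, with Pearson r of log2(FPKM + 1) from 0.981 to 0.996 over 6 libraries that share their time points. Most of them kept clear levels at 4 h, such as Isg15, an interferon-stimulated gene, at 50.9, 48.8 and 49.5 FPKM at 1 h and 18.4, 19.5 and 21.7 at 4 h. Pdk4, a kinase that limits glucose oxidation in heart and muscle, was low at 4 h, at 1.51, 1.2 and 1.12 FPKM against 0.0667, 0.0817 and 0.0772.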

How the data were processed

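Single-read RNA-seq libraries of cultured eosinophils were analysed, 1 per group. Per the submitters' processing notes, reads were handled with TopHat 1.4.1 and Cuffdiff 1.2.1 on mm9. The authors deposited FPKM per RefSeq transcript (28702) in 4 tables, each with 1 treated library and its untreated partner. The tables were normalised separately, and the untreated columns differed by factors of 0.945 (1 h) and 0.947 (4 h). Untreated levels come from the IL-4 tables, and treatment ratios from within each table. A further table deposited by the authors gives log2 fold changes for 1593 genes. Trimming and the RefSeq release are not given in the sources used here. Transcripts of a symbol were summed. At 232 symbols with several loci the locus of highest total was kept. Calls used a pseudocount of 1, a floor of 1 FPKM and an absolute log2 change of 1.

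Reads were estimated from FPKM times transcript length less 199 bases, with GENCODE lengths. The value of 1 read was the most frequent low value, and 63.2% to 68.9% of the low values lay within 0.1 of a whole read. The named genes were the 39 members, the leading genes of each list and the 12 most alike. The members and lists were chosen with earlier results of these data known. The counting was checked on simulated data, in which only genes already expressed in the untreated library of 4 h were raised. That check does not cover genes near 0 at 4 h, as most members were. Analysis used Python 3.11.15 and pandas 2.3.3.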

Additional observations from a re-analysis of the deposited data

How the results depend on the processing

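No paired analysis was possible because each group had 1 library, and no result comes from a test. Of 96 alternative values for 28 results, 65 stayed within 1.5 times the value reported. The others follow, and the cause was not tested except where fewer genes were compared. At a level of 5 FPKM in place of 1, 17, 14 and 14 heart genes were present at 1 h (untreated, IL-4, IL-33) and 4, 4 and 4 at 4 h, and at 0.5 FPKM 12 were present in the untreated library of 4 h. With a floor of 5 FPKM fewer genes were compared, and those higher at 1 h numbered 14, 10 and 10, with 10 in all 3 treatments. Leaving out 1 treatment gave 21 to 23 in place of 21. For other heart genes, 1 was higher in all 3, with 2 at a pseudocount of 0.1, 2 after scaling to one median, 2 with the IL-33 libraries on the scale of the IL-4 tables (added after seeing the data), 0 at a floor of 5 FPKM, and 2 to 2 when 1 treatment was left out. With a pseudocount of 0.1, 1 heart gene was lower with IL-4 at 1 h, 1 higher with IL-4 at 4 h and 2 lower with IL-33 at 4 h. The sums without the broadly expressed genes were 207 FPKM for IL-33 1 h and 19.3, 27.1 and 35.6 at 4 h. The median over the 39 genes was 3.62, 2.81 and 3.16 FPKM at 1 h and 0.0110, 0.0958 and 0.126 at 4 h. A pseudocount of 0.1 kept 11 of the 12 most alike genes. Genes at a few reads at 4 h are imprecise, most so in the untreated library, the shallowest.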
